A study of Mus musculus with 6 samples.

Results

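The genes of the mouse major histocompatibility complex (MHC), named *H2*, and 7 partners that build or regulate MHC molecules are described here. The tissue is the small intestine epithelium of wild type embryos and of embryos with *Tcf7l1* deleted by Cre made from the *Shh* locus. The members were chosen by name: every symbol of the count tables that begins with *H2-*, which gave 44 genes, and *B2m*, *Tap1*, *Tap2*, *Tapbp*, *Nlrc5*, *Ciita* and *Cd74*. These are 51 of the 23366 genes counted. The family was proposed with results of the same comparison in view, so the differences between genotypes below are a description of these libraries and not independent evidence.

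MHC class I molecules consist of a heavy chain and the light chain beta-2 microglobulin, encoded by *B2m*, and display peptides at the cell surface. The peptides are made by the proteasome, carried into the endoplasmic reticulum by the transporter TAP and loaded with the help of tapasin. The classical class I genes *H2-K1* and *H2-D1* present peptides to CD8 T cells in almost all tissues, whereas the non-classical genes of the Q, T and M regions have narrower expression and more specialised ligands. Class II molecules display peptides from endocytosed proteins, mainly on dendritic cells, macrophages and B cells, together with the invariant chain Cd74 and the peptide editor H2-DM. NLRC5 and CIITA are the transactivators of class I and class II genes, respectively. In the adult intestine, the epithelium is known for the thymus leukaemia antigen encoded by *H2-T3*, a ligand of CD8 alpha homodimers.

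The libraries came from E13.5 small intestine, 3 from wild type embryos and 3 from mutant embryos of the genotype *Shh-cre-egfp:Tcf7l1 lox/lox*. In the mutants, Cre made from the *Shh* locus deletes a floxed exon of the WNT pathway repressor *Tcf7l1*, and no library carried Cre with an intact *Tcf7l1*. Each library was made from 500 living EpCAM-positive cells, and the label of both groups gives no treatment. The samples are given as biological replicates, and their litter and genetic background are not stated in the sources used here.

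The total count lay between 18216537 and 20397278 reads per library. *Tcf7l1* had 364 to 476 normalized counts in the wild type libraries but 33.0 to 73.0 in the mutants. Of 10 epithelial markers, all tested, 0 were called higher and 4 lower in the mutants by the criteria given below, which were *Cdh1* (log2 fold change -0.57 ± 0.10), *Krt18* (-0.54 ± 0.07), *Cdx2* (-0.68 ± 0.15) and *Shh* (-1.28 ± 0.17), beside 5.83% of all tested genes called lower. The mutants carry the Cre allele at *Shh* itself, so *Shh* is no independent marker of the epithelium here. At an unadjusted p under 0.05 in edgeR's quasi-likelihood test, 2 of the markers were higher and 7 lower, beside 18.6% and 21.6% of all tested genes. Without overlap between the genotypes, 2 lay higher and 6 lower, beside 20.8% and 22.2%. The median log2 fold change of the 10 markers was -0.41, with *Epcam* at 0.25 ± 0.07, *Krt8* at -0.32 ± 0.06 and *Krt19* at -0.49 ± 0.06. Their part in the differences of the MHC genes was not tested. The pan-leukocyte gene *Ptprc* had 0 counts in all 6 libraries, as had *Itgax*, *Cd3e* and *Cd8a*. Other immune cell markers had reads. *Laptm5* had 51, 55 and 29 in wild type and 36, 28 and 14 in mutant libraries. *Cd68* had 41, 65 and 90 in wild type and 97, 83 and 43 in mutant libraries. The summed level of 12 leukocyte markers lay between 1452 and 1746 in wild type and between 1716 and 2168 in mutant libraries, most of it *Lcp1*. The 15 macrophage and dendritic cell markers summed to 98.5 to 126.8 in wild type (mutants 86.3 to 162), and the 10 B and T cell markers to 35.4 to 41.3 and 36.2 to 43.7. The 10 mesenchyme markers summed to 1322 to 1609 in wild type and 1041 to 1480 in mutants. Of these, 5 were tested and 0 called, with a median log2 fold change of -0.97. The 9 erythroid markers summed to 22.8 to 34.5 in wild type and 5.3 to 10.4 in mutants. *Xist* had 0 counts in the wild type libraries and a mean of 336 in the mutant libraries, and 4 Y-linked genes had 0 counts in the mutant libraries alone, so genotype and sex cannot be told apart. In sorted bulk samples, fewer cells that express a gene and less RNA per cell cannot be told apart either.

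The start regions of 5 member genes are shown because they cover class I genes with and without a called difference between the genotypes, and the light chain. Each runs from 250 bases before to 50 bases after the RefSeq start on build GRCm38.p6, and is written 5′ to 3′ on the strand of the gene. Capitals mark 4 motifs searched on both strands: TTTCACTT, which is the core of the interferon element of class I genes, a general interferon element (GAAA repeated after any 2 bases), an element bound by NF-kappaB (GGGGA and TCCCC with any base between them), and TGACGC, part of the element bound by CREB and ATF factors. *H2-K1* lies at chr17:34000298-34000597 (minus strand), *H2-Q10* at chr17:35469839-35470138 (plus strand), *H2-T3* at chr17:36190102-36190401 (minus strand), *H2-M3* at chr17:37269984-37270283 (plus strand) and *B2m* at chr2:122147437-122147736 (plus strand).
H2-K1: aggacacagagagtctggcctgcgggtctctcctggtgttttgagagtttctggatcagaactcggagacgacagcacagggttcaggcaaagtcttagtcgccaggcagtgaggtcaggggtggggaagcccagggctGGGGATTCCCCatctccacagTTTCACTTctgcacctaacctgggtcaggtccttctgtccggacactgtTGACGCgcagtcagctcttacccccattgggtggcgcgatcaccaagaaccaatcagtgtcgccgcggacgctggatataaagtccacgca
H2-Q10: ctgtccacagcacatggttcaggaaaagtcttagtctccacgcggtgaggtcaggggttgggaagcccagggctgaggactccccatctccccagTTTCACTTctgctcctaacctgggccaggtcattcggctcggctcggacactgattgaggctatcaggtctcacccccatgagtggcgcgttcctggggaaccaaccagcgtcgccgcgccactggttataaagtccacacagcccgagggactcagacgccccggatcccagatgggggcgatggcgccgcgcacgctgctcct
H2-T3: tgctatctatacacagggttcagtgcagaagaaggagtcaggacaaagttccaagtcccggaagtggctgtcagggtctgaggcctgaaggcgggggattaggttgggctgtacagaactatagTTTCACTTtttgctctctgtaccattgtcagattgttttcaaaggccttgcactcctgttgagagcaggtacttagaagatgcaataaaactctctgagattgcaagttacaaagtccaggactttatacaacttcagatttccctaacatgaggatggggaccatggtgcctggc
H2-M3: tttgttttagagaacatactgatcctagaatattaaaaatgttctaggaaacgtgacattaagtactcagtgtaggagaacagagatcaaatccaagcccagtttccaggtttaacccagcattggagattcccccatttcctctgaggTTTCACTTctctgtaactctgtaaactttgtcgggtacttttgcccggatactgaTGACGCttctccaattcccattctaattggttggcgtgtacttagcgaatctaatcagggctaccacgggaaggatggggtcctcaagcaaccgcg
B2m: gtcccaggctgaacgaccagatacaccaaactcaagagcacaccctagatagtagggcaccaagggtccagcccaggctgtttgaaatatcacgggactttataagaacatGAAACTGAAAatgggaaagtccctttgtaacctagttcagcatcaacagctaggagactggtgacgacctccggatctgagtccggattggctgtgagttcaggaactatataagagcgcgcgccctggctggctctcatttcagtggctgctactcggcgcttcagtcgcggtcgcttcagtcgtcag

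A start region was matched by symbol for 34 of the 51 members, and *H2-T10* was not among them. TTTCACTT and TGACGC were picked after the sequences had been looked at, the latter in place of the full CREB element TGACGTCA, which was in 1 of the 34 (*H2-Aa*) and in 1.79% of all start regions. TTTCACTT was present in 9 of 22 class I genes (40.9%), among them *H2-K1*, *H2-D1*, *H2-Q10*, *H2-Q4*, *H2-T3* and *H2-M3*, and in 1.6% of 32851 RefSeq start regions of the same length. It can overlap the general interferon element read on the other strand. The NF-kappaB element was found in *H2-K1*, *H2-D1* and *H2-Q6*, and in 0.0487% of all start regions. TGACGC was found in *H2-K1*, *H2-D1*, *H2-M3* and *H2-Q4* (7.4% of all), and the general interferon element in *B2m*, *H2-T22* and *H2-T23* (3.44% of all). The TGACGC match of *H2-Q4* lies on the other strand and after the RefSeq start, unlike those of *H2-K1*, *H2-D1* and *H2-M3*. The start regions of *H2-K1*, whose levels overlapped between the genotypes, and of *H2-T3*, whose levels did not, thus share the TTTCACTT letters, and *H2-T3* and *H2-Q10* hold none of the other 3 motifs. The letters ATCAAAG, a TCF/LEF element, were in the windows of *H2-Eb1*, *H2-Eb2* and *H2-M9* and in 3.73% of all start regions. These matches are descriptions of letters and not of binding.

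Of the 51 members, 37 had at least 1 count and 19 passed the filter on low counts and were tested with edgeR's quasi-likelihood test over 12501 genes. A call needed a Benjamini-Hochberg adjusted p below 0.01, a log2 fold change of 0.5 or more in size and an average of 50 or more normalized counts. The non-classical class I genes *H2-T10*, *H2-T3* and *H2-Q10* and the light chain *B2m* were called higher in the mutant libraries, and 0 members were called lower. At an unadjusted p under 0.05 in the same test, 10 members were higher and 3 lower, beside 18.6% and 21.6% of all tested genes, and DESeq2 called 4 higher and 1 lower. Over all tested genes, 2.78% were called higher and 5.83% lower, or 8.62% in either direction. For 13 of the 19 tested members the ranges of the 2 genotypes were apart, with 11 higher and 2 lower in the mutants, and over all tested genes this was so for 43.0% (20.8% higher and 22.2% lower). The median log2 fold change was 0.66 over the tested members and -0.04 over all tested genes. Tested members are those expressed in at least 1 of the groups, so a member seen in a single group had to differ. All members together took 380, 375.7 and 410.1 CPM in the wild type libraries and 571.8, 587.1 and 578.4 CPM in the mutant libraries. This sum includes *H2-Ke2* and *H2-Ke6*, which encode no MHC molecules. They held a mean of 2332 of 7585 normalized counts in wild type and 2779 of 11300 in mutants.

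**Figure D1:**
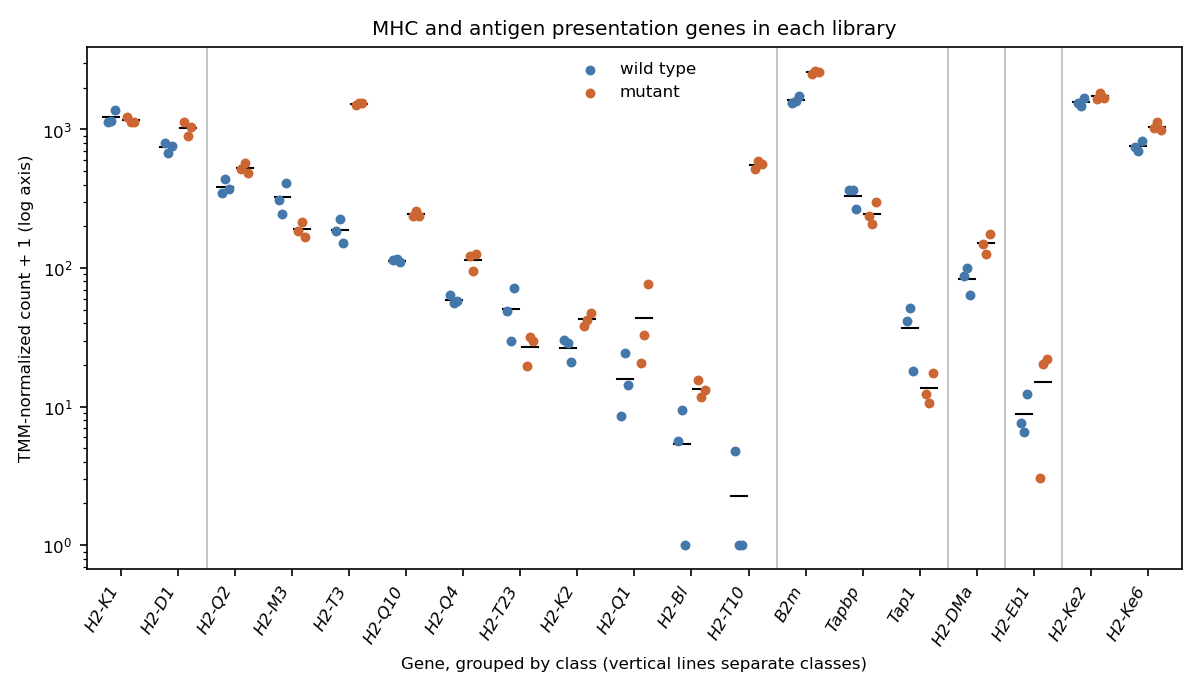
TMM-normalized counts plus 1 (log axis) of the 19 tested members in each of the 3 wild type (blue) and 3 mutant (orange) libraries, with black lines at the group means and vertical grey lines between classical class I, other class I, light chain and loading, class II-like, class II and non-MHC genes. The libraries of both genotypes lie together for *H2-K1* and far apart for *H2-T3* and *H2-T10*, where the mutant libraries hold 1501 to 1557 and 520.8 to 588.9 normalized counts.

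Among the classical class I genes, *H2-K1* overlapped between the genotypes, whereas all mutant libraries lay above the wild type libraries for *H2-D1*, which was not called. *H2-K1* had 1127, 1149 and 1389 normalized counts in the wild type libraries, given here and below in the order 1, 2 and 3, and 1222, 1139 and 1140 in the mutant libraries. The groups overlapped, with a log2 fold change of -0.07 ± 0.11 (SE), which turned to 0.0515 without wild type 3 and to 0.0371 with a correction for gene length. *H2-D1* had 798, 677.8 and 759.4 normalized counts in wild type and 1134, 898.8 and 1039 in mutant libraries. The lowest mutant library was above the highest wild type library, but the log2 fold change of 0.46 ± 0.12 was under 0.5. It was 0.54 and met the criteria without mutant 2. *H2-L*, a classical gene that only some mouse haplotypes carry, had 1 read in all. On the RPKM scale, which divides by exon length and library size, *H2-K1* was at 24.0 ± 2.9 and 22.9 ± 0.93 (SD, n = 3 for each genotype). *H2-D1* was at 14.8 ± 1.2 RPKM in wild type and 20.3 ± 2.3 RPKM in mutants, so the gap between the pair was smaller in the mutants. The ratio of *H2-D1* to *H2-K1* normalized counts was 0.547 to 0.708 in wild type, against 0.789 to 0.928 in the mutants.

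*H2-T3* encodes the thymus leukaemia antigen and lies on chromosome 17 of mm9 from 36322517 to 36327232, on the minus strand. It had 183.8, 223.7 and 151.1 normalized counts in the wild type libraries and 1501, 1557 and 1551 in the mutant libraries. Its lowest mutant library was far above its highest wild type library, and the ratio of means was 8.25 (log2 fold change 3.04 ± 0.14). It ranked 22 of 12501 tested genes by log2 fold change. It went from 3.50 ± 0.68 to 28.9 ± 0.57 RPKM (SD, n = 3), and so lay below *H2-K1* in wild type and above it in the mutants on this scale. Not divided by length, the ratio of *H2-T3* to *H2-K1* normalized counts was 0.109 to 0.195 in wild type, against 1.23 to 1.37 in the mutants. All windows of 84 bases, the read length, in its longest transcript were unique among the annotated transcripts.

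*H2-T10* encodes a class I heavy chain that is recognised by gamma delta T cells, together with the closely related *H2-T22*, and it was almost absent in wild type. It had 4, 0 and 0 reads in the wild type libraries and 503, 553 and 505 in the mutant libraries. All mutant libraries thus had over 500 reads, and all 4 wild type reads came from wild type 1. Scaled by library size, the summed counts differed 443-fold, with a counting interval of 173 to 1629 (exact, 95%, counting error only). The ratio was 294 without wild type 2, and without wild type 1 the difference was at least 393.6-fold against a floor of 3 counts over the group. It ranked 4 of 12501 by log2 fold change, fitted at 8.66 ± 0.41. *H2-T22* had 2 reads in all, from wild type 2. Both share 97.4% identical bases in their best local alignment, which covers 44.1% of the *H2-T10* transcript, and further alignments were not counted. Of the windows, 87.9% of those of *H2-T10* and 82.9% of those of *H2-T22* were unique. On the strand opposite to *H2-T10* exons, *BC023719* covers 27.1% of their bases, and the counting is not stated to use strand, so that reads of the 2 cannot be told apart. The annotation of mm9 types *H2-T10*, at 36252821 to 36258410 on the minus strand of chromosome 17, as a polymorphic pseudogene.

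No other T region member was called, and 3 of them had too few reads to be tested. *H2-T23*, which encodes the Qa-1 molecule that displays leader peptides of other class I chains to natural killer cells, had 47.8, 28.9 and 71.3 normalized counts in wild type and 18.6, 30.9 and 28.8 in mutant libraries. The groups overlapped (log2 fold change -0.92 ± 0.48). *H2-Bl*, a blastocyst-derived class I sequence, had 5, 9 and 0 reads in wild type and 14, 10 and 11 in mutant libraries, and was not called. *H2-T24* had 8 and 10 reads summed over the wild type and mutant libraries, and *H2-T9* had 0 in all, with 1.69% of its windows unique. The summed level of the H2-T genes was 884.5% of wild type in mutants.

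*H2-Q10*, which encodes a secreted class I molecule known from the liver, had 112.5, 114.7 and 109.3 normalized counts in wild type and 238.2, 256.6 and 237.8 in mutant libraries. Libraries of 1 genotype differed little and the groups were well apart, at a ratio of means of 2.18 and a log2 fold change of 1.12 ± 0.20. *H2-Q10* lies at 35607034 to 35611508 on the plus strand of chromosome 17 in mm9. *H2-Q4* had 62.8, 55 and 57.03 normalized counts in wild type and 122.2, 93.7 and 125 in mutant libraries. Its groups were also apart (log2 fold change 0.96 ± 0.29), yet it did not meet the criterion on adjusted p. For *H2-Q2*, the most abundant Q gene per length (6.90 and 9.41 RPKM), wild type libraries had 347.9, 435.4 and 371.6 and mutant libraries 521.9, 569.7 and 484.5 normalized counts. It did not overlap and was not called either (log2 fold change 0.45 ± 0.15). *H2-Q1* had 7.5, 23.3 and 13.3 and then 19.7, 32.0 and 75.2 normalized counts, with overlap. *H2-Q6*, *H2-Q7*, *H2-Q8* and *H2-Q9* had 0 reads in all 6 libraries, and *H2-Q5* had 2. Of the windows of *H2-Q7*, 52.6% were unique. *H2-Q10* and *H2-Q7* are 94.9% identical in their best local alignment, over 34.7% of the *H2-Q10* transcript. Unique mapping can thus lower or split the counts of these genes. The longest annotated transcripts used here have 4328 bases in 2 exons for *H2-Q10* and 4209 bases in 3 exons for *H2-Q7*. They take in most bases between the ends of each gene, so these shares need not hold for fully spliced mRNA. Mouse haplotypes also differ in the number and sequence of Q and T genes, and with the haplotype of the embryos not known, a difference in haplotype between the groups and a difference in expression cannot be told apart.

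The M region was represented by a single gene. *H2-M3*, which presents N-formylated peptides of bacteria and mitochondria, had 311.3, 246.1 and 413.4 normalized counts in wild type and 185.3, 214.0 and 167.0 in mutant libraries. All mutant libraries lay below all wild type libraries (log2 fold change -0.78 ± 0.21), with an edgeR quasi-likelihood adjusted p of 0.011, just outside the criterion. Without wild type 2 it was -0.94 and met the criteria, as it did in 7 of the 18 alternatives in all. The other 11 H2-M genes had between 0 and 9 reads each. *H2-K2*, a class I sequence next to *H2-K1*, had 29.1, 28.0 and 19.96 normalized counts in wild type and 37.3, 41.5 and 46.5 in mutant libraries, and was not called.

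The class I genes together held 3040, 2998 and 3358 normalized counts in wild type and 5545, 5437 and 5475 in mutant libraries, or 175% of wild type. Without *H2-T3* and *H2-T10* the mutant sum was 115% of wild type. Summed over all genes of the table, the normalized counts of the mutants were 107.5% of wild type. The genes that made up these reads also differed. *H2-K1* held 37.1 to 41.4% of class I reads in wild type but 20.8 to 22.04% in the mutants, whereas *H2-T3* held 4.5 to 7.46% and 27.1 to 28.6%. *H2-T10* held at most 0.123% in a wild type library and 9.39 to 10.8% in a mutant library, and *H2-M3* went from 8.21 to 12.3% to 3.05 to 3.94%. Shares add to a whole, so that of *H2-K1* was lower in the mutants while its own level overlapped.

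**Figure D2:**
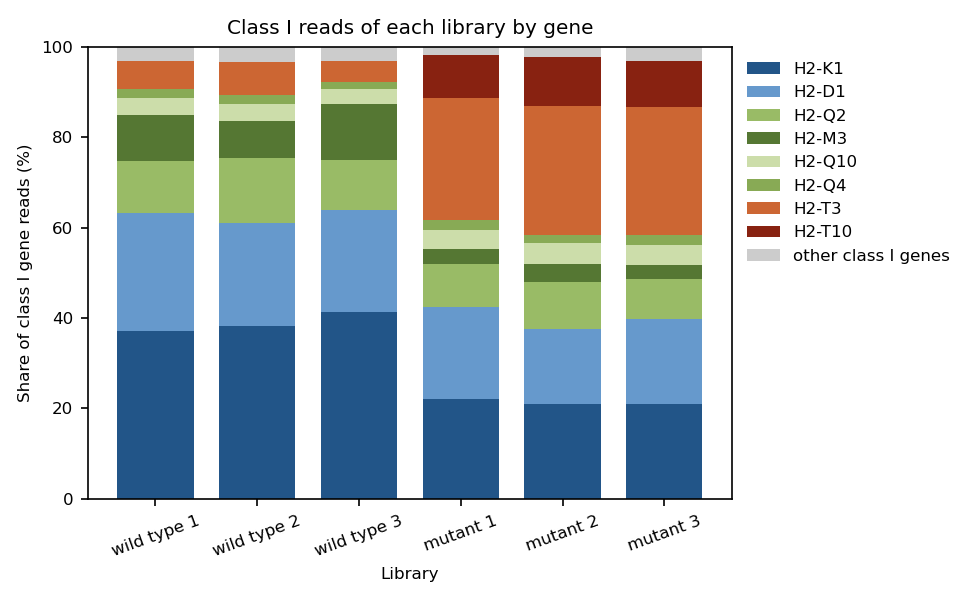
Share of all class I gene reads (%) held by each gene in the 3 wild type and 3 mutant libraries, with the genes of low count pooled in grey. *H2-T3* and *H2-T10* (orange and dark red) hold 27.1 to 28.6% and 9.39 to 10.8% in the mutant libraries, where the shares of *H2-K1* and *H2-M3* are 20.8 to 22.04% and 3.05 to 3.94%.

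*B2m*, whose product pairs with all these heavy chains, was the most abundant member per length, at 97.6 ± 6.0 RPKM in wild type and 154 ± 4.5 RPKM in mutants (SD, n = 3). It had 1550, 1617 and 1748 normalized counts in wild type and 2506, 2654 and 2607 in mutant libraries. The libraries of each genotype lay within a narrow range and the groups were apart, with a ratio of means of 1.58 and a log2 fold change of 0.66 ± 0.08. *B2m* lies on chromosome 2 from 121973422 to 121978819 in mm9, outside the *H2* complex. The sum of the class I genes divided by *B2m* was 1.96, 1.85 and 1.92 in wild type and 2.21, 2.05 and 2.10 in mutant libraries. The sum of the classical genes alone divided by *B2m* was 1.24, 1.13 and 1.23 in wild type and 0.940, 0.768 and 0.836 in mutants.

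Of the loading factors and regulators, *Tapbp* and *Tap1* were tested, and neither was called. *Tapbp*, which encodes tapasin, had 366.7, 367.3 and 264.2 normalized counts in wild type and 235.0, 205.5 and 298.7 in mutant libraries, with overlap (log2 fold change -0.43 ± 0.19). *Tap1*, a subunit of the peptide transporter, had 40.3, 50.3 and 17.1 and then 11.4, 9.6 and 16.6. Its groups did not overlap and lay in the opposite direction to *B2m* (log2 fold change -1.51 ± 0.59), but it was not called, and the lowest wild type and highest mutant library differed by less than 1 normalized count. *Tap2*, the other subunit, had 9 and 7 reads summed over the 2 groups. *Nlrc5* had 7 reads, all in mutant 2, and *Ciita* had 1.

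**Figure D3:**
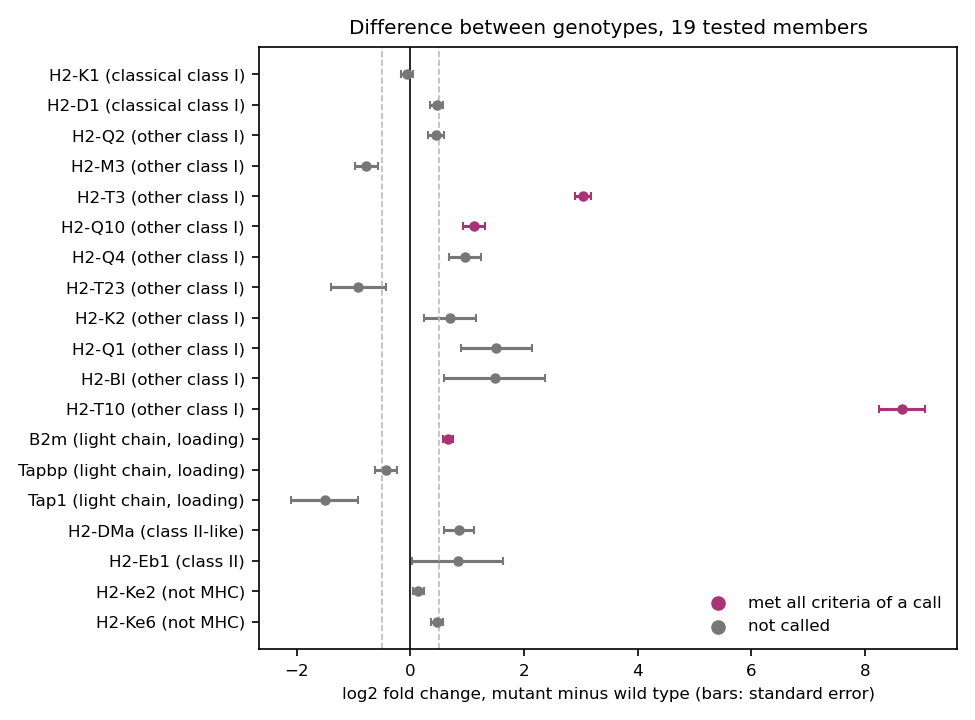
Log2 fold change of mutant against wild type with its standard error for the 19 tested members, with their class in parentheses and dashed lines at an absolute log2 fold change of 0.5. The 4 genes that met all criteria (purple) are *H2-T10* at 8.66, *H2-T3* at 3.04, *H2-Q10* at 1.12 and *B2m* at 0.66, and all lie right of 0.

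Class II transcripts had few reads. *H2-Ab1*, the beta chain of the I-A molecule, had 11, 4 and 9 reads in wild type and 0 in each mutant library, which makes it at least 7.04-fold lower in mutants against a floor of 3 counts over the group. This bound was 4.62 without mutant 1 and 4.69 without mutant 2. *H2-Aa*, its alpha chain partner, had 8 reads in all, from mutant 2, and 0 in the libraries where *H2-Ab1* was read. *H2-Eb1* had 7, 6 and 12 reads in wild type and 2, 18 and 19 in mutants, with overlap, and *H2-Eb2*, *H2-Ea-ps* and *H2-Ob* had 0. The invariant chain *Cd74* had 3 reads summed over wild type and 9 over mutant libraries. Among class II-like genes, only *H2-DMa*, a chain of the peptide editor, was tested. It had 87.2, 98.8 and 62.7 normalized counts in wild type and 148.1, 124.6 and 175.9 in mutant libraries, which did not overlap, with a log2 fold change of 0.85 ± 0.26 that was not called. Its partners *H2-DMb1* and *H2-DMb2* had 25 and 10 reads in wild type and 23 and 12 in mutants, at 82.7% and 79.6% unique windows, and *H2-Oa* had 2 and 9.

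The symbol rule also takes in *H2-Ke2* and *H2-Ke6*, which encode a prefoldin subunit and a steroid dehydrogenase and present no antigen. *H2-Ke2* had a log2 fold change of 0.14 ± 0.09 and *H2-Ke6* of 0.46 ± 0.11, and neither was called. *H2-Ke6* met the criteria without wild type 3, at 0.55. *Gm20427*, on the same strand, covers 85.4% of *H2-Ke6* exon bases.

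Genes near *H2-T10* and *H2-T3* were examined along chromosome 17. From the first to the last *H2* gene, over 3.545 Mb of mm9 (34075766 to 37620497), 141 other genes were counted and 86 tested. Of these, 3 were called higher (*A930015D03Rik*, *Hspa1b* and *Trim15*), 13 were called lower, among them *Dpcr1* at -4.35 ± 0.39, *Gnl1* at -0.97 ± 0.15 and *Trim26* at -0.98 ± 0.13, and their median log2 fold change was -0.17. Over all tested genes 2.78% were called higher and 5.83% lower. The others called lower were *Atf6b*, *Ddah2*, *Ddr1*, *Gtf2h4*, *Ppp1r10*, *Rxrb*, *Skiv2l*, *Vars*, *Vps52* and *Znrd1as*.

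A stretch of 243 kb, from *Gm8801* at 36084191 to the end of *H2-T3* at 36327232, was picked after its values had been seen. It holds 20 counted genes, of which 12 were tested and 8 had a log2 fold change of at least 1. Over all tested genes this was so for 1.83%. The stretch was bounded by *Gm8801* and *H2-T3*, both higher in the mutants, so these shares cannot serve as a test. *Gm8801*, *H2-T10*, *Gm11127* and *Gm8909* passed the filter on low counts through the mutant libraries alone, so they had to differ. *Gm8801*, annotated as a pseudogene, has its lowest coordinate 168.6 kb below that of *H2-T10*. It had 0 reads in each wild type library and 49, 49 and 57 in the mutants, at least 58.7-fold higher against the floor of 3 counts over the group. Leaving out wild type 1, 2 or 3 gave bounds of 39.1, 38.97 and 39.4. It was not called, as its mean normalized count was under 50. *Gm11127* is 97.9% identical to *H2-T9* in their best local alignment, over 67.9% of its transcript. It had 1, 0 and 0 reads in wild type and 26, 18 and 19 in mutants. *Gm8909*, 91.6% identical to *H2-Bl* in the best local alignment, over 65.97% of its transcript, had 5, 2 and 1 and then 24, 17 and 13 reads. *C920025E04Rik*, a class I pseudogene whose lowest coordinate is 7.3 kb below that of *H2-T10*, had 26, 26 and 24 and then 66, 61 and 50. *A930015D03Rik*, which had 23, 24 and 41 reads in wild type and 182, 208 and 153 in mutants, runs opposite to *H2-T22*, and 90.4% of its transcript matches *H2-T22* on the other strand. Genes on the opposite strand, *A930015D03Rik* among them, cover 29.6% of *H2-T22* exon bases, and without strand in the counting, reads of *H2-T22* and *A930015D03Rik* from the bases they share cannot be told apart. Other genes within the stretch had values near or below 0, with *Abcf1* at 0.04 ± 0.10, *Prr3* at -0.23 ± 0.13, *Gnl1* at -0.97 ± 0.15 and *H2-T23* at -0.92 ± 0.48. Unequal haplotypes of the groups over this stretch were not tested.

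**Figure D4:**
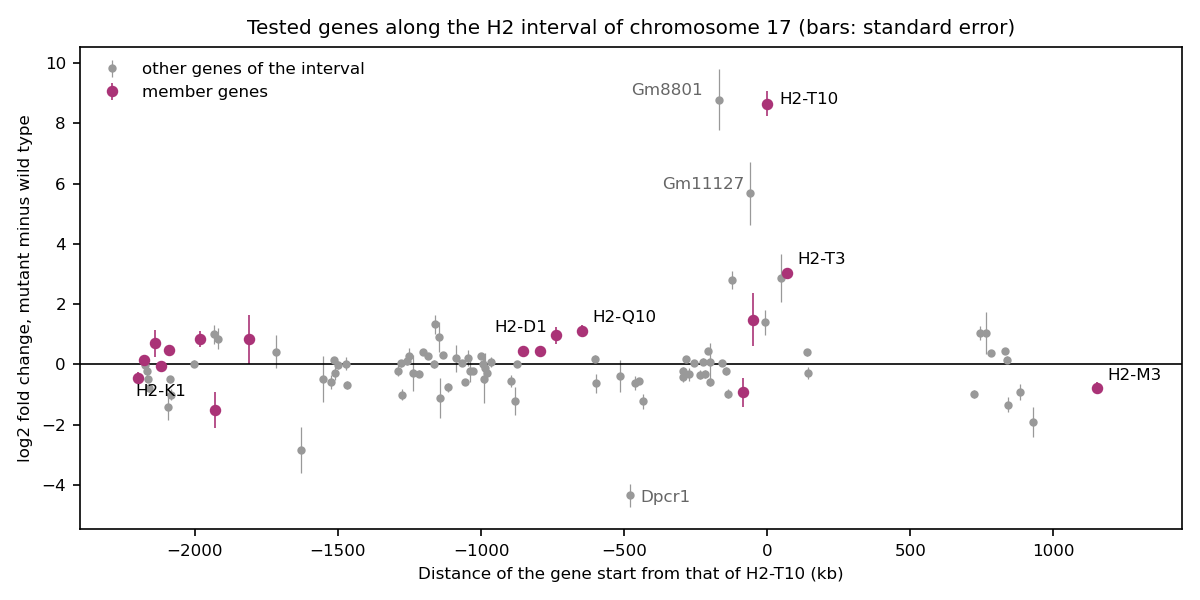
Log2 fold change of mutant against wild type with its standard error for the tested genes of the *H2* interval, by the distance of the gene start from that of *H2-T10* in kb, with members in purple and other genes in grey. The highest values, *Gm8801* at 8.79, *H2-T10* at 8.66 and *Gm11127* at 5.68, lie within 168.6 kb of the *H2-T10* start, with genes near 0 between them, and *Dpcr1* is the lowest at -4.35.

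The genes whose log2 CPM followed *H2-T3* most closely over the 6 libraries were *Zfp367*, *Ing2*, *Tmem87a*, *2410018L13Rik* and *Tmem14c*, with Pearson's r of 0.997 to 0.999. For *H2-T10* they were *Klf6*, *Ciapin1*, *Tagap*, *Tagap1* and *Acsl5*, with r of 0.996 to 0.999. The 6 points fall into the 2 genotypes, so any gene that separates them with little spread has a high r.

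The genes that supply and assemble class I peptides were taken as a list of 17, all tested. Of these, *Erap1* and *Ide* were called higher by edgeR and by DESeq2, beside 2.78% of all tested genes, and 0 were called lower by either. At an unadjusted p under 0.05, 9 were higher and 3 lower in edgeR's test, beside 18.6% and 21.6% of all tested genes. Without overlap, 9 lay higher and 4 lower, beside 20.8% and 22.2%. *Erap1*, the aminopeptidase that trims peptides in the endoplasmic reticulum, had 792.4, 661.9 and 825.9 normalized counts in wild type and 1227, 1188 and 1145 in mutant libraries (log2 fold change 0.64 ± 0.11, edgeR adjusted p = 6.71e-04). *Ide*, a cytosolic peptidase, had a log2 fold change of 0.75 ± 0.07. The catalytic immunoproteasome subunits *Psmb8*, *Psmb9* and *Psmb10* all lay higher in the mutants without overlap, at 0.86 ± 0.35, 1.01 ± 0.32 and 0.37 ± 0.11, and were not called. *Psmb9* had 47.8, 38.2 and 59.9 normalized counts in wild type and 93.2, 108.6 and 91.8 in mutants, and its exons overlap those of *Tap1* on the other strand, whose groups lay in the other direction. The chaperone *Calr* was at 0.42 ± 0.06, with an adjusted p of 2.12e-04 in edgeR's test but a fold change under the criterion, and the tapasin relative *Tapbpl* was at -0.17 ± 0.20. *Pdia3* and *Hspa5*, the most abundant of the list by normalized count, were at -0.04 ± 0.07 and 0.22 ± 0.06. The median of the list was 0.26.

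**Figure D5:**
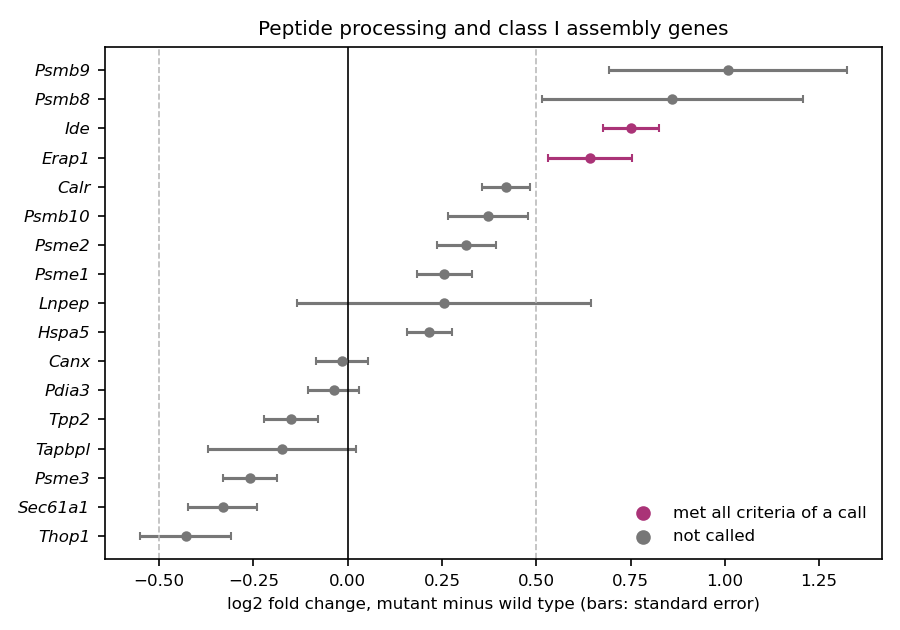
Log2 fold change of mutant against wild type with its standard error for the 17 genes of peptide processing and class I assembly, with dashed lines at an absolute log2 fold change of 0.5. *Ide* at 0.75 and *Erap1* at 0.64 (purple) met all criteria, and *Psmb9* at 1.01 and *Psmb8* at 0.86 had larger values with wider errors.

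Of 17 class I-like genes outside the family, 4 were tested and 0 called by edgeR or DESeq2. Over all tested genes, edgeR called 2.78% higher and 5.83% lower. At an unadjusted p under 0.05 in edgeR's test, 2 were higher and 0 lower, beside 18.6% and 21.6% of all tested genes. Without overlap, 3 lay higher in the mutants (*Cd1d1*, *Cd1d2* and *Hfe*) and 0 lower, beside 20.8% and 22.2%. *Cd1d2*, a lipid-presenting molecule, had 2, 8 and 14 reads in wild type and 57, 96 and 89 in mutant libraries. These groups were far apart (log2 fold change 3.50 ± 0.56, edgeR adjusted p = 3.34e-04), and the gene was not called as its mean normalized count was under 50. Its neighbour *Cd1d1* was at 0.23 ± 0.15 and *Hfe* at 0.61 ± 0.28.

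Of 18 transcription regulators of MHC genes, 17 were tested, 0 were called higher and 1 lower by edgeR and by DESeq2, beside 2.78% and 5.83% of all tested genes in edgeR's test, and their median log2 fold change was 0.02. At an unadjusted p under 0.05, 2 were higher and 2 lower in edgeR's test, beside 18.6% and 21.6% of all tested genes. The 1 called was *Prdm1*, a repressor, with 2697, 3042 and 2946 normalized counts in wild type and 1939, 1631 and 1915 in mutants (log2 fold change -0.66 ± 0.09, edgeR adjusted p = 6.44e-05). *Rfx5*, a subunit of the factor that binds class I and class II promoters, was at -0.61 ± 0.30 and *Irf1* at -0.11 ± 0.09, and these were not called. *Eed*, a subunit of the polycomb complex, was at 0.34 ± 0.08. Among 11 class II processing genes, 6 were tested and 0 called by edgeR, while DESeq2 called 1 higher. Of the 6, 3 were higher and 2 lower at an unadjusted p under 0.05 in edgeR's test, beside the same 18.6% and 21.6%. Examples of this list are the endopeptidase *Lgmn* at 0.48 ± 0.11 and *Ctsb* and *Ctsl*, which are cathepsins, at 0.20 ± 0.07 and -0.27 ± 0.09.

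Of 49 interferon pathway and target genes in the table, 40 were tested, 2 were called higher and 3 lower by edgeR, beside 2.78% and 5.83% of all tested genes. DESeq2 called 2 higher and 4 lower, and at an unadjusted p under 0.05 in edgeR's test 4 were higher and 10 lower, beside 18.6% and 21.6% of all tested genes. Those called higher were the chemokine *Cxcl10*, with 11.2, 35.4 and 14.3 normalized counts in wild type and 77.7, 181.0 and 183.6 in mutants (log2 fold change 2.85 ± 0.45), and *Ifi35* at 0.64 ± 0.16. *Ifi35* was lost without wild type 1, wild type 2, mutant 1 or mutant 2, which left 1 gene called. Those called lower were the immunity GTPase *Irgm1* at -0.80 ± 0.16, *Ifit2* at -0.53 ± 0.10 and the RNA sensor *Ddx58* at -1.28 ± 0.26, and without mutant 1 only *Ifit2* was called. The median over the list was -0.17, and *Stat2*, *Irf7* and *Usp18* were at -1.29 ± 0.34, 0.62 ± 0.34 and -1.76 ± 0.65, none of them called by edgeR. *Stat2* was the additional gene called lower by DESeq2.

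The called members held at least 215 reads in each mutant library, whereas 32 members were not tested, with 0 to 25 reads summed over a group, so that most differences among these were not detectable at this depth. Those whose counting interval or bound lay away from 1 were *H2-Ab1*, *H2-Oa* with 0, 2 and 0 reads in wild type and 2, 4 and 3 in mutant libraries (ratio 5.11, interval 1.06 to 48.6), and *H2-Aa* and *Nlrc5*, which were at least 3.03-fold and 2.65-fold higher in mutants but were read in mutant 2 alone. With the RPKM of at least 50 that the study's methods name as an expression limit, *B2m* alone of the 4 was called. *H2-D1*, *H2-Q2* and *H2-Q4* were called in addition with a correction for gene length.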

How the data were processed

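RNA-sequencing was performed on 500 sorted cells per library, with cDNA from polyadenylated RNA amplified over 15 PCR cycles. The authors mapped reads to mm9 with STAR 2.5.2b and counted uniquely mapped reads per gene with featureCounts 1.5.1, and deposited these raw read counts, not normalized, for 3 wild type and 3 mutant libraries. Whether strand was used is not stated in the sources used here. Reads have no molecular identifiers, so intervals and floors cover counting error only.

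Counts were tested for genotype with edgeR 4.0.16 in R 4.3.3 (TMM factors 0.957 to 1.06, filterByExpr, quasi-likelihood test, Benjamini-Hochberg adjustment). Normalized counts are counts per effective library size, and values per kb use the exon bases of an mm9 annotation. Standard errors are the fitted log2 fold change over the root of its F statistic. The members and the gene lists were chosen with earlier results of these data known. Tested members, members with at least 10 reads, called list genes, the 3 most abundant list genes and those related to a named member were named, and a few others after their values were seen. Uniqueness was counted over 84-base windows of the longest annotated transcript of each gene, and some of these take in most of the gene span. Copies were aligned with BLAST 2.17.0. Identities and aligned shares are those of the best-scoring local alignment alone, so further matching parts were not counted. Start regions are RefSeq sequences of GRCm38.p6. Alternatives were DESeq2 1.42.0, other scalings, filters and criteria, a loess correction for length (span 0.5), leaving out each library, and replicate number as a block. The tests were tried on simulated data beforehand.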

Additional observations from a re-analysis of the deposited data

How the results depend on the processing

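The 4 members called higher numbered 4 to 5 with 1 library left out, and stayed within 3 to 6 under the other settings except for 1 with an RPKM of at least 50 and 7 with the correction for gene length. The count of members called lower, 0, became 1 (*H2-M3*) with DESeq2, with scaling by library size only, with no filter on low counts, with a filter at a mean of 50 counts, at an adjusted p under 0.05, and with the length correction, and was 0 to 1 with 1 library left out. The log2 fold change of *H2-K1* reversed to 0.0371 with the length correction and to 0.0515 without wild type 3 (-0.1197 to 0.0515 with 1 library left out). Called higher in the antigen processing list were 4 genes with no minimum fold change, 0 with a log2 fold change of 1 or more in size and 0 with the RPKM limit, and 1 was called lower with library size as the only scaling. In the interferon list, 1 gene was called higher with library size only, at a log2 fold change of at least 1 and with the replicate block, 0 with the RPKM limit, and 1 to 2 with 1 library left out, and called lower were 1 at a log2 fold change of at least 1, 0 with the RPKM limit, 1 with the length correction and 1 to 4 with 1 library left out. The cause of these shifts was not tested, beyond the stricter or looser criteria themselves.

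Of all called genes, 32.3% were higher, against 17.3% with library size only (median log2 fold change -0.15), 64.6% with the length correction (0.09), 79.1% with the RPKM limit and 50.8% with no minimum fold change. All-gene calls of 348 higher and 729 lower became 743 and 407 with the length correction, 200 and 958 with library size only, 106 and 28 with the RPKM limit, 85 and 284 at a log2 fold change of at least 1, 902 and 875 with no minimum, 436 and 1178 at an adjusted p under 0.05, and 260 to 516 and 405 to 867 with 1 library left out. *H2-T3*, *H2-Q10* and *B2m* kept a positive sign throughout, at 2.93 to 3.20, 1.02 to 1.35 and 0.53 to 0.72. Libraries with equal replicate numbers showed little correlation of their deviations from the group means, at 0.0097, -0.0449 and -0.0179. Whether samples shared a litter cannot be told from these values. With the replicate block 4 members were called higher. Summing *H2-T10* with *H2-T22*, an alternative chosen after seeing the data, gave 1.87 and 556 normalized counts.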
